A study of Homo sapiens with 12 samples.

Results

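The genes described here are 49 interferon-stimulated genes, chosen by symbol from a list of known interferon targets and found in 49 of the 58233 gene rows of a raw count table. They lie on 18 chromosomes and were divided by role into signalling factors, RNA sensors, oligoadenylate synthetases, IFIT proteins, membrane restriction factors, dynamin-like GTPases, the ISG15 conjugation system, the PARP9 and DTX3L module, immunoproteasome subunits and other effectors. Poly-A RNA was sequenced from HCT116 cells, a human colorectal carcinoma line, in 4 groups with 3 biological replicates each, which gave 12 libraries. All cells carried Tet-OsTIR1, a plant auxin receptor gene placed under a doxycycline-inducible promoter. The parental cells had untagged SDS22, and the SDS22-degron cells expressed SDS22 from the PPP1R7 alleles as a fusion to a mini auxin-inducible degron and the fluorescent protein mClover. Each line was kept without treatment or received 2 µg/ml doxycycline (Dox) together with 500 µM of the auxin IAA over 48 h, a treatment that makes OsTIR1 and directs degron-tagged SDS22 to the proteasome. The degron line was isolated by colony after editing, so that a difference between untreated lines can also be a difference between a colony and its parent. SDS22 is a regulator of the protein phosphatase PP1, and the tag acts on the protein, so PPP1R7 RNA is no check of its loss. PPP1R7 was at 43.7, 45.4, 44.0 and 47.9 CPM (counts scaled to library size, after TMM normalization) in untreated parental, treated parental, untreated degron and treated degron cells.

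Interferons are cytokines released by cells that sense foreign or misplaced nucleic acid. Type I and type III interferons bind receptors at the cell surface and activate Janus kinases, which phosphorylate STAT2 and other STAT factors. STAT2 and IRF9 are subunits of the ISGF3 complex, which binds interferon-stimulated response elements (ISREs) in the promoters of antiviral genes, while gamma-activated sites (GAS) are the elements used mainly after interferon gamma. Many of these genes keep a low basal level in epithelial cells, and several can also be induced directly by IRF1, IRF3 or IRF7.

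Promoter sequences were matched by symbol to RefSeq sequences of the GRCh38.p14 build, which run from 250 bases before to 50 bases after the gene start. The match was made for 38 of the 49 genes, and IRF7, DDX58, DHX58, OAS2, OASL, IFIT2, IFITM2, MX2, GBP2, USP18 and TRIM22 had no entry. The ISRE core, searched as GAAANNGAAA on both strands and with overlapping matches allowed, was found in 26 of the 38 promoters (68.4%) and in 1255 of all 35116 promoters of the same length (3.57%). The GAS letters TTCNNNGAA were found in 12 of the 38 (31.6%) and in 7.66% of all promoters. The ISRE letters were present in 10 of the 11 matched genes whose response to Dox/IAA was larger in degron cells (90.9%). They were in 18 of the 27 matched genes that rose in degron cells (66.7%) and in 2 of the 3 that fell or did not pass (66.7%). Of the 8 matched genes that were too low to test, 6 held them (75.0%). PARP9 and DTX3L, counted separately, have overlapping promoters that share 1 match. No comparison of these shares is drawn from so few genes. A match is a run of letters and not a measured binding site.

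The following 40-base windows are shown because their genes include those with the most distinct responses below. They are written in the direction of the gene, with the ISRE match in capitals, and a match on the opposite strand reads as its reverse complement. The windows lie at chr1:27672324-27672363 (IFI6, minus strand), chr1:1013375-1013414 (ISG15, plus strand), chr19:17405736-17405775 (BST2, minus strand), chr4:168318816-168318855 (DDX60, minus strand), chr11:313985-314024 (IFITM1, plus strand), chr3:122564317-122564356 (PARP9, minus strand), chr17:78979957-78979996 (LGALS3BP, minus strand), chr10:89392492-89392531 (IFIT1, plus strand) and chr12:112938316-112938355 (OAS3, plus strand).
IFI6: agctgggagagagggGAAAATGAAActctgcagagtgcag
ISG15: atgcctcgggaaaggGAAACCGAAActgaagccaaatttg
BST2: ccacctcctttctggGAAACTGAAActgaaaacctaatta
DDX60: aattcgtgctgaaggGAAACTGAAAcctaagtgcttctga
IFITM1: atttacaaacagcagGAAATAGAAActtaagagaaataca
PARP9: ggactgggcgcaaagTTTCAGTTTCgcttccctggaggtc
LGALS3BP: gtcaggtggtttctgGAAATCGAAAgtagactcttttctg
IFIT1: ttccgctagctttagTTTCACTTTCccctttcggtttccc
OAS3: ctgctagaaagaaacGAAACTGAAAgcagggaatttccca
The first base of the match stood 156 bases upstream of the gene start in IFI6, 107 in ISG15, 130 in BST2, 88 in DDX60, 40 in IFITM1, 41 in PARP9, 58 in LGALS3BP, 116 in IFIT1 and 143 in OAS3. OAS3, the only tested member that fell in degron cells, carried the same letters GAAACTGAAA in this window as BST2 and DDX60, which rose.

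Library totals ranged from 12133915 to 14657508 counts with a median of 12662965. Epithelial markers were present, led by keratins, although CDX1 was at 0 and VIL1 had 5 counts in all. Their summed level over 10 genes was 3787 to 4246 CPM in untreated and 2959 to 3535 CPM in treated parental libraries. In degron libraries the sum was 3665 to 4497 CPM without and 3707 to 4238 CPM with Dox/IAA. The 8 leukocyte markers summed to between 0.79 and 2.52 CPM per library, with CD3E at 0 and PTPRC at 3 counts. NCAM1 was the only one with enough counts to be tested, at mean levels of 0.410, 0.543, 0.853 and 1.54 CPM in untreated parental, treated parental, untreated degron and treated degron cells. It rose in degron cells by 0.86 ± 0.32 on the log2 scale (adjusted p = 0.0303, edgeR), and the difference between the responses of the lines, tested as an interaction, did not pass (0.46 ± 0.59, adjusted p = 0.66). Of the 8 epithelial markers tested, CDH1, CLDN4 and CLDN7 had a higher log2 change with Dox/IAA in degron than in parental cells. The differences by edgeR were 0.64 ± 0.19 (adjusted p = 0.029), 0.69 ± 0.15 (adjusted p = 0.00469) and 0.50 ± 0.14 (adjusted p = 0.0185). The summed level of the epithelial list, in contrast, was lower in treated parental libraries and overlapped between treated and untreated degron libraries. The 7 fibroblast and endothelial markers summed to 10.6 to 32.8 CPM, mostly COL1A1, which rose with Dox/IAA by a log2 fold change of 0.81 ± 0.16 (SE) in parental and 0.94 ± 0.15 in degron cells, while COL1A2, DCN and CDH5 were at 0. The part of these markers in the results was not tested.

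Of the 49 genes, 39 had enough counts to be tested, and 10 did not. DHX58 and OAS1 passed the filter on low counts only through their highest group, so counts of genes are also given without them. The highest levels per gene length were those of IFITM3 and LGALS3BP. In untreated parental cells their mean levels were 130 and 152 RPKM (CPM per kilobase of gene length), and the median of the 49 genes was 1.12 RPKM. IFITM3 reached 283 RPKM in treated degron cells, where the median was 3.08 RPKM. The summed level of the 49 genes was 1226 to 1353 CPM in untreated parental libraries, 1547 to 1752 CPM in treated parental libraries, 1228 to 1289 CPM in untreated degron libraries and 2174 to 2349 CPM in treated degron libraries. The 2 untreated groups overlapped, and the treated degron libraries stood above all others. LGALS3BP and IFITM3 made up between 51.7% and 56.8% of this sum, and without them the 4 ranges were 564 to 593, 788 to 821, 570 to 589 and 953 to 993 CPM in the same order. In bulk RNA, a change in the number of cells that express a gene and a change in RNA per cell cannot be told apart.

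Dox/IAA raised many of these genes in parental cells. With edgeR's quasi-likelihood test and Benjamini-Hochberg adjustment over 16657 genes (adjusted p under 0.05), 25 of the 39 tested genes rose, none fell and 14 did not pass, and 13 of these 14 were above 0 in log2 fold change. Among all genes tested, 15.9% rose and 15.7% fell. The median log2 fold change of the 39 genes was 0.50, against 0.00 over all genes. Without DHX58 and OAS1, 24 of 37 rose and none fell. Since parental cells have no degron-tagged SDS22, this response is the background against which the degron response is set.

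In SDS22-degron cells, 36 of the 39 genes rose with Dox/IAA, OAS3 fell, and IRF9 and IFI27 did not pass. Among all genes tested, 26.0% rose and 25.5% fell. The median log2 fold change was 1.12, against 0.00 over all genes, and without DHX58 and OAS1 34 of 37 rose and 1 fell. The 2 responses share no library. In 35 of the 39 genes (89.7%) the degron response was above the parental response, as it was in 49.8% of all genes. Without DHX58 and OAS1 it was above in 34 of 37 genes. Across the 39 genes the responses had a Pearson r of 0.57 and a Spearman rho of 0.55, compared with 0.64 for both over all genes. This is a description across genes that share libraries, and it was not computed without DHX58 and OAS1.

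The difference between the 2 responses was tested as the interaction of line and treatment, which subtracts the parental response from the degron response. It was above 0 and passed the test in 14 genes, was below 0 and passed in OAS3, and did not pass in 24. Among all genes tested, 6.03% passed in the higher and 8.35% in the lower direction, and the medians were 0.46 for the 39 genes and -0.00 for all genes. Of the 24 genes that rose in both lines, 8 had a larger response in degron cells and 16 did not pass the interaction. Of the 12 that rose in degron cells and did not pass in parental cells, 6 passed the interaction (DDX60, IFIT2, IFITM1, BST2, HERC5 and LGALS3BP) and 6 did not (IRF1, OAS1, MX1, USP18, CMPK2 and TRIM22). The removal of DHX58 and OAS1 left 14 higher and 1 lower of 37 in the interaction. The split of these calls by line was not counted over all genes, so nothing is read from it about these genes.

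**Figure D1:**
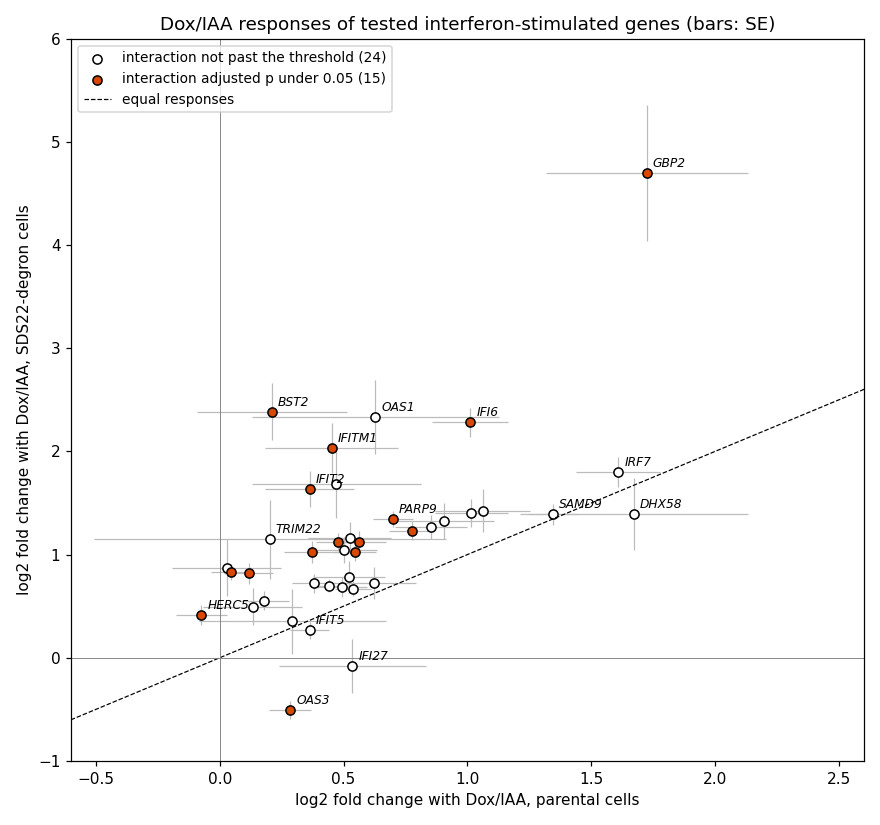
Each point is 1 of the 39 tested interferon-stimulated genes, with the log2 fold change with Dox/IAA in parental cells on the x axis and in SDS22-degron cells on the y axis, bars of 1 SE, and filled points where the interaction passed the test. A total of 35 points lie above the dashed line of equal responses, and OAS3 lies below 0 on the y axis.

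**Figure D2:**
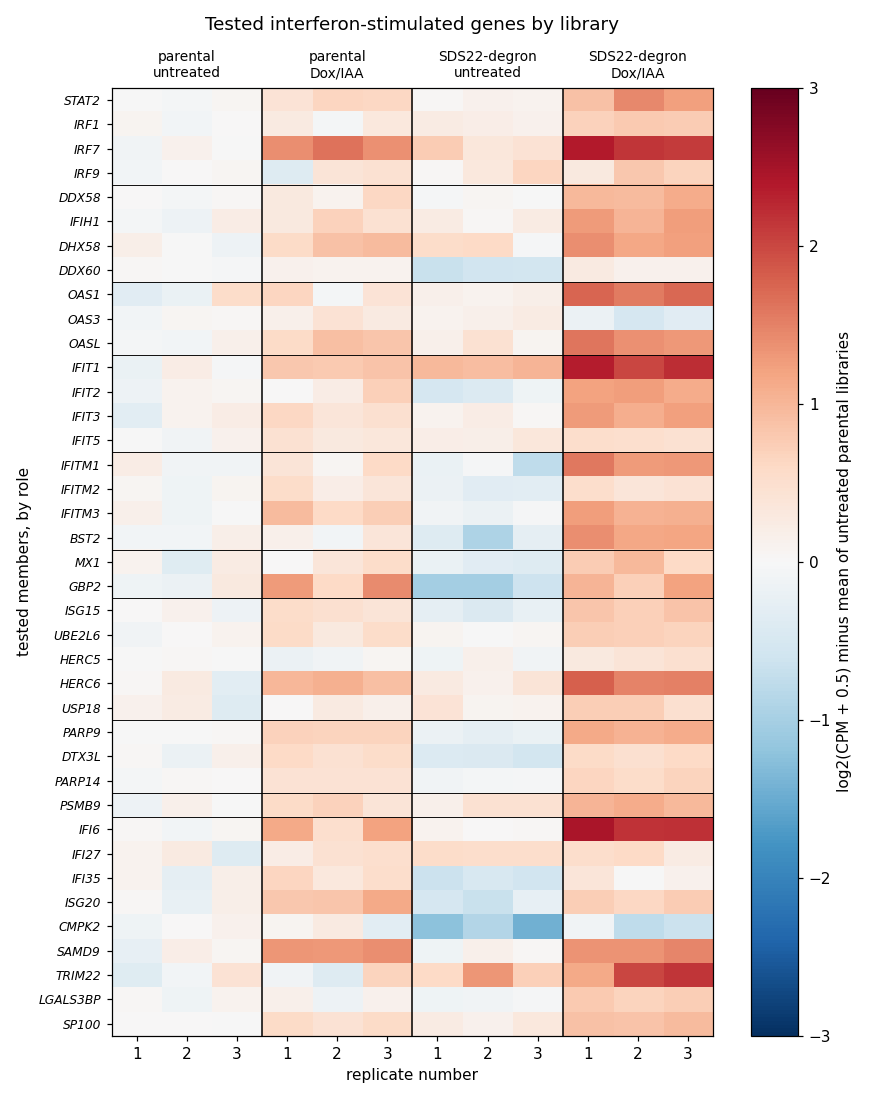
Colour gives log2(CPM + 0.5) minus the mean of the untreated parental libraries for the 39 tested genes (rows, grouped by role) in the 12 libraries (columns, by group and replicate number). The 3 treated degron libraries are the reddest in most rows, and OAS3 is blue in them.

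Among the 4 signalling factors and regulators, 2 rose in parental cells, 3 rose in degron cells and 1, STAT2, had a larger degron response. STAT2 is the ISGF3 subunit that is specific to type I and type III interferon signalling. It was at 40.2, 38.9 and 42.2 CPM in untreated and 53.9, 63.1 and 62.1 CPM in treated parental cells. In degron cells it was at 41.4, 44.2 and 43.7 CPM without and 75.2, 111 and 95.9 CPM with Dox/IAA. All treated libraries were above all untreated ones, and the treated degron libraries were above the treated parental ones. STAT2 had log2 fold changes of 0.56 ± 0.11 (SE, adjusted p = 0.000766) in parental and 1.12 ± 0.11 (adjusted p = 1.03e-07) in degron cells, and the interaction was 0.56 ± 0.15 (adjusted p = 0.0185, edgeR). The interaction of STAT2 no longer passed without treated parental replicate 1 (0.47) or treated degron replicate 3 (0.53).

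IRF7, the factor that amplifies type I interferon transcription, rose in both lines. It went from 2.53, 3.05 and 2.72 to 8.02, 9.56 and 7.87 CPM in parental cells and from 5.03, 3.65 and 3.87 to 16.4, 13.9 and 13.3 CPM in degron cells. The log2 fold changes were 1.61 ± 0.17 (adjusted p = 2.67e-06) and 1.80 ± 0.15 (adjusted p = 1.86e-08). The interaction was 0.19 ± 0.23 (adjusted p = 0.648), with a 95% confidence interval from -0.30 to 0.68. IRF1, which activates many of the same promoters, rose in degron cells by 0.55 ± 0.09 (adjusted p = 8.31e-05) and had 0.18 ± 0.10 in parental cells (adjusted p = 0.185). IRF9, the DNA-binding subunit of ISGF3, stayed between 0.525 and 1.86 CPM in all libraries and did not pass in either line. It overlaps another gene on the same strand with 112 counts in all, against 180 for IRF9.

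Of the 4 RNA sensors, 3 rose in parental and all 4 in degron cells, and DDX58 and DDX60 had larger degron responses. DDX58 encodes RIG-I, which recognizes RNA with a 5′ triphosphate. It was at 17.6, 16.7 and 17.9 CPM in untreated and 21.4, 18.8 and 27.2 CPM in treated parental cells, and at 17, 18.1 and 17.2 against 34.6, 34.1 and 37.9 CPM in degron cells. The treated degron libraries did not overlap any other group. DDX58 had log2 fold changes of 0.37 ± 0.11 (adjusted p = 0.0184) and 1.03 ± 0.11 (adjusted p = 3.95e-07), with an interaction of 0.65 ± 0.16 (adjusted p = 0.00897). The parental change was 0.35 without untreated parental replicate 2 and 0.21 without treated parental replicate 3, and neither passed.

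DDX60, a helicase linked to RIG-I signalling, differed between lines before treatment. It was at 12.6, 12.3 and 12.0 CPM in untreated parental and at 7.51, 8.05 and 8.20 CPM in untreated degron cells. With Dox/IAA it was at 13.4, 13.4 and 13.2 CPM in parental and 14.9, 13.4 and 13.6 CPM in degron cells. The untreated groups did not overlap, and the treated groups did. The untreated degron level was lower by a log2 difference of -0.63 ± 0.10 (adjusted p = 0.000176), and the treated lines differed by 0.07 ± 0.10 (adjusted p = 0.593). The log2 fold change was 0.12 ± 0.10 (adjusted p = 0.398) in parental and 0.82 ± 0.10 (adjusted p = 2.68e-06) in degron cells, with an interaction of 0.70 ± 0.14 (adjusted p = 0.00277).

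DHX58 encodes LGP2, a RIG-I-like regulator without signalling domains. It was at 0.338, 0.234 and 0.165 CPM in untreated and 0.600, 0.869 and 0.944 CPM in treated parental cells, and at 0.583, 0.619 and 0.228 against 1.45, 1.16 and 1.24 CPM in degron cells. Within each line the treated and untreated libraries did not overlap. DHX58 passed the filter on low counts only through its highest group, treated degron cells, so its degron test is no separate support for a rise. The log2 fold changes were 1.67 ± 0.46 (adjusted p = 0.00989) and 1.39 ± 0.35 (adjusted p = 0.00266), and the interaction of -0.28 ± 0.58 had an interval from -1.50 to 0.94. IFIH1, which encodes the long-RNA sensor MDA5, rose by 0.50 ± 0.13 in parental (adjusted p = 0.00825) and 1.05 ± 0.12 in degron cells (adjusted p = 1.53e-06). Its interaction of 0.54 ± 0.18 did not pass (adjusted p = 0.0544). It passed in 9 alternatives, among them the likelihood ratio test (adjusted p = 0.0324) and DESeq2 (adjusted p = 0.0462).

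The genes of the oligoadenylate synthetase family, whose active enzymes make the second messenger of RNase L, did not share a direction. OAS3 was the most abundant, at 94.7, 104 and 104 CPM in untreated and 113, 136 and 121 CPM in treated parental cells. In degron cells it was at 109, 112 and 120 CPM without and 89.3, 70.9 and 79.8 CPM with Dox/IAA. The treated degron libraries were the lowest of the 12, whereas the treated parental libraries were above the untreated ones. OAS3 rose by 0.28 ± 0.08 (adjusted p = 0.0155) in parental cells, changed by -0.51 ± 0.09 (adjusted p = 7.63e-05) in degron cells and had an interaction of -0.79 ± 0.12 (adjusted p = 0.000271), with an interval from -1.04 to -0.54. The parental rise no longer passed without untreated parental replicate 1 (0.23) or treated parental replicate 2 (0.21).

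OAS1 was low, at 0.169, 0.234 and 0.742 CPM in untreated and 0.825, 0.316 and 0.629 CPM in treated parental cells, and at 0.437, 0.413 and 0.456 against 2.36, 2.01 and 2.31 CPM in degron cells. Only the treated degron libraries stood apart from the other groups. OAS1 passed the filter on low counts only through these libraries, so its test in degron cells is no separate support for a rise. Its log2 fold changes were 0.63 ± 0.50 (adjusted p = 0.364) and 2.33 ± 0.36 (adjusted p = 2.69e-05), and the interaction of 1.70 ± 0.66 did not pass (adjusted p = 0.091, interval 0.33 to 3.08). The parental change ranged from 0.29 without untreated parental replicate 1 to 1.5 without untreated parental replicate 3, and the interaction from 0.83 without the latter library to 2.03 without the former, and none of the fits that left out 1 library passed. Of all alternatives that gave an interaction for OAS1, only the likelihood ratio test passed (adjusted p = 0.0454). OASL, which enhances RIG-I signalling, rose by 0.91 ± 0.20 (adjusted p = 0.00217) and 1.33 ± 0.17 (adjusted p = 4.87e-06). OAS2 had 15 counts in all and was not tested.

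The IFIT proteins bind viral RNA that lacks host cap marks. Of 4, 3 rose in parental and 4 in degron cells, and IFIT2 had a larger degron response. IFIT2 was at 4.64, 5.71 and 5.44 CPM in untreated and 5.25, 6.16 and 8.97 CPM in treated parental cells, which overlapped. Degron cells had 3.57, 3.85 and 4.78 CPM without and 12.7, 13.2 and 12.0 CPM with Dox/IAA. The log2 fold changes were 0.36 ± 0.18 (adjusted p = 0.14) and 1.64 ± 0.17 (adjusted p = 3.45e-07), and the interaction was 1.27 ± 0.25 (adjusted p = 0.00232). Without treated parental replicate 1 the parental change of IFIT2 was 0.52 and passed.

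IFIT1 was at 4.39, 6.10 and 5.03 CPM in untreated and 9.30, 9.16 and 9.68 CPM in treated parental cells, and at 10.5, 10.2 and 10.9 against 28.5, 21.9 and 25.5 CPM in degron cells. The untreated degron libraries were above the treated parental libraries. The untreated lines differed by a log2 fold change of 1.02 ± 0.14 (adjusted p = 3.06e-05). IFIT1 rose by 0.85 ± 0.14 (adjusted p = 0.000241) in parental and 1.27 ± 0.12 (adjusted p = 7.07e-08) in degron cells, and the interaction of 0.41 ± 0.19 did not pass (adjusted p = 0.153). IFIT3 rose by 0.52 ± 0.17 (adjusted p = 0.0243) and 1.16 ± 0.15 (adjusted p = 4.66e-06), and its interaction of 0.64 ± 0.23 did not pass (adjusted p = 0.072). The parental rise of IFIT3 did not pass without untreated parental replicate 1 (0.36), treated parental replicate 1 (0.45) or treated parental replicate 3 (0.53). IFIT5 rose by 0.36 ± 0.08 (adjusted p = 0.00226) and 0.26 ± 0.08 (adjusted p = 0.00884), with an interaction between -0.33 and 0.14 (95% interval). IFIT1, IFIT2 and IFIT3 lie within the span of LIPA on the opposite strand, which had 10651 counts. The libraries were stranded, but the strand setting of the counting is not given in the sources used here.

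Membrane restriction factors act where viruses enter or leave the cell. Of 4, 2 rose in parental and 4 in degron cells, and 3 had larger degron responses. BST2, or tetherin, holds budding virions at the surface. It was at 1.01, 1.02 and 1.32 CPM in untreated and 1.27, 1.03 and 1.57 CPM in treated parental cells, and at 0.729, 0.344 and 0.835 against 3.74, 3.1 and 3.13 CPM in degron cells. The parental groups overlapped and the degron groups did not. The log2 fold changes were 0.21 ± 0.30 (adjusted p = 0.637) and 2.39 ± 0.28 (adjusted p = 1.15e-06), a 5.23-fold change in degron cells. The interaction of 2.18 ± 0.42 (adjusted p = 0.00209) had an interval from 1.29 to 3.07. The untreated degron libraries were all below the untreated parental ones, a log2 difference of -0.82 ± 0.34 that did not pass (adjusted p = 0.0855).

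IFITM1, which blocks membrane fusion during entry, was at 2.03, 1.49 and 1.48 CPM in untreated and 2.32, 1.74 and 2.75 CPM in treated parental cells. Degron cells had 1.39, 1.58 and 0.759 CPM without and 5.95, 4.72 and 4.78 CPM with Dox/IAA. The treated degron libraries were higher than the 9 others. The changes were 0.45 ± 0.27 (adjusted p = 0.214) and 2.03 ± 0.24 (adjusted p = 1.37e-06), with an interaction of 1.58 ± 0.37 (adjusted p = 0.00741). IFITM3, a restriction factor of late endosomes, rose 1.71-fold (adjusted p = 7.20e-06) and 2.35-fold (adjusted p = 6.46e-09), with a log2 interaction of 0.46 ± 0.13 (adjusted p = 0.0208). That interaction did not pass without untreated parental replicate 1 (0.37), untreated degron replicate 2 (0.42) or treated degron replicate 1 (0.38). IFITM2 rose by 0.38 ± 0.09 (adjusted p = 0.00286) and 0.72 ± 0.09 (adjusted p = 2.02e-06). IFITM1 lies within IFITM2 on the same strand, and the members of this family are alike in sequence, so their reads may be split between them.

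Among the dynamin-like GTPases, MX1 and GBP2 were tested, and MX2 and GBP1, with 4 and 2 counts, were not. MX1, which traps viral nucleocapsids, was at 0.844, 0.469 and 0.989 CPM in untreated and 0.750, 1.11 and 1.34 CPM in treated parental cells, and at 0.583, 0.481 and 0.456 against 1.60, 1.94 and 1.4 CPM in degron cells. The parental groups overlapped and the degron groups did not. MX1 rose by 1.68 ± 0.33 in degron cells (adjusted p = 0.00034), had 0.47 ± 0.34 in parental cells (adjusted p = 0.316) and an interaction of 1.21 ± 0.49 (adjusted p = 0.106).

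GBP2, a guanylate-binding protein of cell-autonomous immunity, was at 0.422, 0.391 and 0.742 CPM in untreated and 1.95, 1.03 and 2.20 CPM in treated parental cells. Degron cells had 0, 0 and 0.152 CPM without and 1.53, 1.16 and 1.81 CPM with Dox/IAA. The treated libraries of the lines overlapped, and the untreated degron libraries held 2 counts in all against 19 in untreated parental cells, a ratio of 0.0934 (95% counting interval 0.0106 to 0.387). Treated degron libraries held 57 counts, a ratio of 30.9 to the untreated ones (8.18 to 262). The fitted interaction of 2.97 ± 0.93 (adjusted p = 0.0379) rests on these 2 counts, was 5.55 without untreated degron replicate 3 and did not pass when any of 7 other libraries was left out, namely untreated parental replicates 1 and 3, treated parental replicate 2, untreated degron replicates 1 and 2 and treated degron replicates 1 and 3 (2.44 to 3.09). The fitted log2 fold change of GBP2 was 1.72 ± 0.41 (adjusted p = 0.00358) in parental and 4.70 ± 0.66 (adjusted p = 1.01e-05) in degron cells, and the latter became 7.28 without untreated degron replicate 3.

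ISG15 is a ubiquitin-like protein that is conjugated to other proteins by UBE2L6 and HERC5 and removed by USP18. Of the 5 genes of this system, 3 rose in parental and 5 in degron cells, and ISG15 and HERC5 had larger degron responses. ISG15 was at 29.4, 32.2 and 26.4 CPM in untreated and 43.4, 40.7 and 38.5 CPM in treated parental cells, and at 24.0, 21.4 and 25.1 against 52.4, 48.0 and 53.1 CPM in degron cells. The untreated degron libraries were the lowest of the 4 groups and the treated degron libraries the highest. The changes were 0.48 ± 0.09 (adjusted p = 0.000636) and 1.12 ± 0.09 (adjusted p = 1.61e-08), with an interaction of 0.65 ± 0.13 (adjusted p = 0.0022). HERC5 had -0.07 ± 0.10 in parental cells (adjusted p = 0.622), rose by 0.41 ± 0.10 in degron cells (adjusted p = 0.00177) and had an interaction of 0.49 ± 0.14 (adjusted p = 0.0274), which did not pass when any of 6 libraries was left out (untreated parental replicates 1 and 2, treated parental replicate 1, untreated degron replicates 1 and 3 and treated degron replicate 3, with values from 0.41 to 0.49). HERC6 rose by 1.02 ± 0.15 (adjusted p = 6.78e-05) and 1.40 ± 0.14 (adjusted p = 1.39e-07). UBE2L6 rose by 0.49 ± 0.10 (adjusted p = 0.00135) and 0.69 ± 0.10 (adjusted p = 1.43e-05), and its difference between treated lines of 0.23 (adjusted p = 0.0581) passed with the replicate block (0.24 ± 0.09, adjusted p = 0.0466). USP18 rose in degron cells by 0.49 ± 0.18 (adjusted p = 0.0276), and lost the call without untreated degron replicates 2 or 3 or treated degron replicates 1 or 2 (0.42 to 0.44).

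PARP9 and DTX3L form a ubiquitin ligase complex, and PARP14 is a neighbouring mono-ADP-ribosyltransferase. All 3 rose in both lines, and PARP9 and DTX3L had larger degron responses. PARP9 was at 15.7, 15.7 and 16.3 CPM in untreated and 26.2, 25.8 and 25.6 CPM in treated parental cells, and at 14, 13.1 and 13.8 against 35.8, 33.5 and 34.9 CPM in degron cells. None of the 4 groups overlapped. Its changes were 0.70 ± 0.08 (adjusted p = 7.74e-06) and 1.35 ± 0.08 (adjusted p = 9.85e-10), and the interaction was 0.65 ± 0.12 (adjusted p = 0.00101). DTX3L was at 33.7, 28.8 and 36.3 CPM in untreated and 50.3, 45.5 and 48.2 CPM in treated parental cells, and at 24.7, 24.1 and 22.3 against 48.9, 46.3 and 49.7 CPM in degron cells. As with DDX60, the untreated degron libraries were below the untreated parental ones (-0.47 ± 0.09, adjusted p = 0.000656) and the treated groups overlapped (0.01 ± 0.08, adjusted p = 0.946). DTX3L rose by 0.54 ± 0.09 (adjusted p = 0.000131) and 1.02 ± 0.09 (adjusted p = 3.31e-08), with an interaction of 0.48 ± 0.12 (adjusted p = 0.013). PARP14 rose by 0.44 ± 0.07 (adjusted p = 9.62e-05) and 0.70 ± 0.07 (adjusted p = 1.06e-07). These genes lie on chromosome 3, whose 939 tested genes had a median log2 difference of -0.27 between untreated degron and untreated parental cells, and its part in the lower untreated DTX3L was not tested. PARP9 and DTX3L overlap on opposite strands.

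Of the immunoproteasome subunits, PSMB9 rose by 0.62 ± 0.17 (adjusted p = 0.0104) in parental and 0.73 ± 0.15 (adjusted p = 0.00062) in degron cells, and the parental rise did not pass without untreated parental replicate 1 (0.53). It overlaps TAP1 on the opposite strand, which had 12062 counts. PSMB8 had 62 counts in all and did not pass the filter on low counts.

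The remaining 15 effectors included 9 that were tested, of which 5 rose in parental and 8 in degron cells, and IFI6 and LGALS3BP had larger degron responses. IFI6, a small membrane protein with antiviral and anti-apoptotic activity, was at 9.96, 9.07 and 10.1 CPM in untreated and 21.8, 13.8 and 22.9 CPM in treated parental cells. In degron cells it was at 10.5, 9.70 and 9.87 CPM without and 54.9, 45.4 and 46.0 CPM with Dox/IAA. The untreated groups overlapped, and the treated degron libraries lay above the treated parental ones, of which replicate 2 was the lowest. IFI6 rose 2.02-fold (adjusted p = 9.99e-05) in parental and 4.87-fold (adjusted p = 1.33e-09) in degron cells, and its log2 interaction was 1.27 ± 0.21 (adjusted p = 0.000598, interval 0.83 to 1.72).

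LGALS3BP, a secreted glycoprotein that binds galectins, was at 553, 497 and 585 CPM in untreated and 602, 491 and 594 CPM in treated parental cells, and at 493, 504 and 529 against 940, 861 and 914 CPM in degron cells. The treated degron libraries stood apart, and the other 3 groups overlapped. The changes were 0.05 ± 0.08 (adjusted p = 0.708) and 0.83 ± 0.08 (adjusted p = 1.49e-07), with an interaction of 0.79 ± 0.11 (adjusted p = 0.000194).

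ISG20, an RNA exonuclease, rose in both lines. It was at 2.36, 1.88 and 2.64 CPM in untreated and 4.35, 4.42 and 5.59 CPM in treated parental cells, and at 1.46, 1.24 and 1.82 against 4.12, 3.79 and 4.20 CPM in degron cells. The treated groups did not overlap the untreated ones, and the treated degron libraries were all below the treated parental ones. That difference between treated lines, -0.24 ± 0.17 on the log2 scale, did not pass (adjusted p = 0.268, edgeR). The changes were 1.06 ± 0.19 (adjusted p = 0.000453) and 1.42 ± 0.21 (adjusted p = 1.70e-05), and the interaction of 0.36 ± 0.29 (adjusted p = 0.448) had an interval from -0.25 to 0.97. SAMD9, a regulator of translation in antiviral defence, rose by 1.35 ± 0.10 (adjusted p = 9.01e-08) and 1.39 ± 0.10 (adjusted p = 6.73e-09), and its interaction of 0.04 ± 0.15 had an interval from -0.26 to 0.35. SP100, a component of PML nuclear bodies, rose by 0.54 ± 0.07 (adjusted p = 3.71e-05) and 0.67 ± 0.07 (adjusted p = 4.18e-07).

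TRIM22, an antiviral ubiquitin ligase, was low and scattered, at 0.169, 0.313 and 0.659 CPM in untreated and 0.3, 0.158 and 0.865 CPM in treated parental cells, and at 0.802, 1.65 and 0.911 against 1.37, 2.94 and 3.29 CPM in degron cells. The degron groups overlapped, since treated replicate 1 was below untreated replicate 2. The rise of 1.15 ± 0.38 in degron cells (adjusted p = 0.0181) did not pass without untreated degron replicates 1 or 3 or treated degron replicates 2 or 3 (0.91 to 1.02). The parental change was 0.20 ± 0.71 (adjusted p = 0.86), and the treated lines differed by 2.50 ± 0.48 (adjusted p = 0.000322). This difference ranged from 2.13 to 3.40 with 1 library left out, the highest without treated parental replicate 3. The untreated lines differed in the same direction by 1.55 ± 0.57, which did not pass (adjusted p = 0.0515), ranged from 1.15 without untreated degron replicate 2 to 2.17 without untreated parental replicate 3, and passed in 12 of 22 alternatives. TRIM22 overlaps TRIM5 on the opposite strand, which had 4101 counts. IFI35 rose by 0.52 ± 0.14 (adjusted p = 0.0102) and 0.78 ± 0.16 (adjusted p = 0.000372), although its parental rise did not pass without untreated parental replicate 2 (0.39). CMPK2 rose in degron cells by 0.87 ± 0.28 (adjusted p = 0.0132), which did not pass without untreated degron replicate 3 (0.72) or treated degron replicate 1 (0.58). IFI27 had 0.54 ± 0.30 in parental (adjusted p = 0.183) and -0.08 ± 0.26 in degron cells (adjusted p = 0.826).

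**Figure D3:**
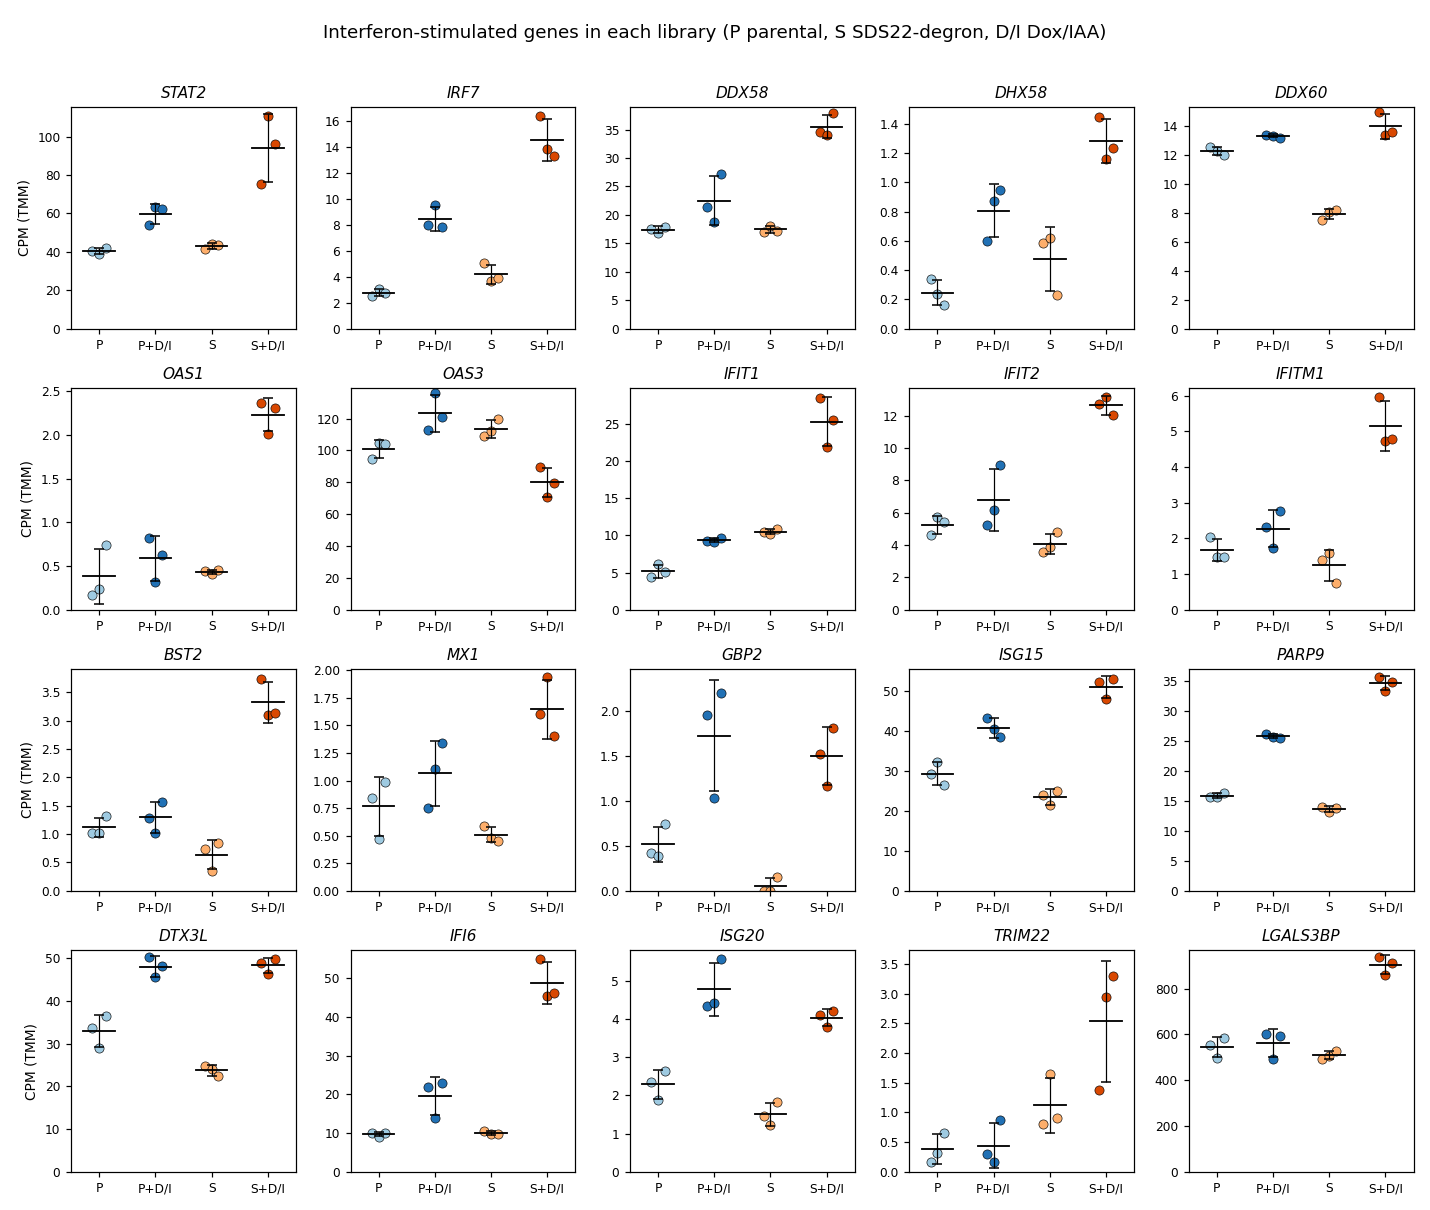
Each panel plots the CPM (TMM-normalized, linear axis from 0) of 1 gene in the 12 libraries, with points for libraries, a horizontal line for the group mean and bars of 1 SD (n = 3). P is parental, S is SDS22-degron and D/I is Dox/IAA, and the treated degron libraries lie above all other groups in genes such as STAT2, IFIT2, BST2, IFI6 and LGALS3BP and below them in OAS3.

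The 10 genes that were not tested are OAS2, MX2, GBP1, PSMB8, IFI44, IFI44L, RSAD2, SAMD9L, XAF1 and EPSTI1, which have roles in RNA sensing, GTP binding, antigen processing and viral restriction. They had between 2 and 62 counts each over the 12 libraries and none was at 0 in all. Their summed counts were 29 in untreated parental, 61 in treated parental, 29 in untreated degron and 97 in treated degron libraries. IFI44 had 4, 15, 4 and 27 counts in the same order, PSMB8 had 9, 17, 9 and 27, and RSAD2 had 7, 6, 3 and 11. The other 7 had at most 16 counts in a group. When all genes were fitted without the filter, IFI44 (2.75, adjusted p = 0.000493) and PSMB8 (1.65, adjusted p = 0.0177) rose in degron cells by edgeR's test. PSMB8 passed there also in 9 of the 12 fits that left out 1 library. It entered those fits only through its highest libraries, treated degron replicate 2 (11 counts) and treated parental replicate 3 (10 counts). These passes are therefore no separate support for a rise. None of the 10 passed in the parental response, the interaction or either comparison of lines without the filter, where 1, 0, 0 and 1 genes had an unadjusted p under 0.05 in the parental response, the interaction and the treated and untreated lines.

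**Figure D4:**
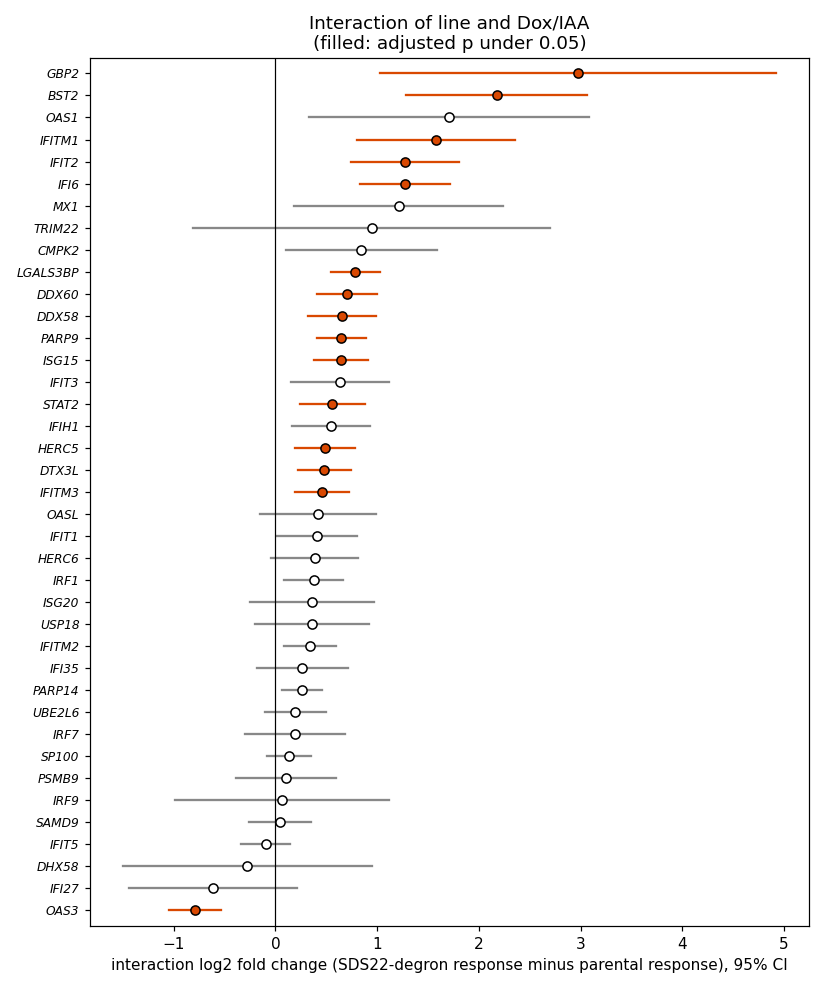
Points give the interaction of line and Dox/IAA (degron response minus parental response, log2 fold change) of the 39 tested genes, with 95% confidence intervals as lines, ordered by value, and filled where the adjusted p was under 0.05. A total of 15 genes are filled, of which 14 lie above 0 and OAS3 lies at -0.79.

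The lines were also compared directly, with and without treatment. Without Dox/IAA, 4 of the 39 genes (10.3%) were higher and 7 lower in degron cells, against 13.2% and 15% of all genes. The median difference was 0.04. These shares are not far from those of all genes, and nothing is read from the counts about the 39 genes as a set. The 4 higher genes were IRF7, IFIT1, SP100 and IFIT5, and the 7 lower ones were ISG15, IFI35, DDX60, IFITM2, GBP2, DTX3L and CMPK2. CMPK2, a mitochondrial nucleotide kinase, had -1.42 ± 0.26 (adjusted p = 0.000461). Calls of IFIT5, IFITM2, IRF7, ISG15 and SP100 in this comparison did not hold in some fits that left out 1 library, and the higher count fell to 2 without untreated parental replicate 1 or untreated degron replicate 3 and to 1 without untreated degron replicate 1. Among genes that did not pass, TRIM22 (1.55, adjusted p = 0.0515) passed in 12 and ISG20 (-0.61 ± 0.23, adjusted p = 0.0605) in 5 of 22 alternatives. With Dox/IAA, 24 genes were higher and 2 (OAS3 and IFI35) lower in degron cells, against 21.8% and 23.1% of all genes, with a median of 0.57. OAS3 was lower by a log2 difference of -0.62 ± 0.09 (adjusted p = 1.12e-05) and IFI35 by -0.35 ± 0.14 (adjusted p = 0.0491), and the latter did not pass when any of 7 libraries was left out, which were treated parental replicates 1 and 3, the 3 untreated degron replicates and treated degron replicates 2 and 3, nor with library size only, RLE normalization, only the groups compared or DESeq2. These values come from the main fit, which has no replicate block, although the numbers were taken to pair the treated libraries. With the block, run as an alternative, UBE2L6 joined the higher genes. CMPK2 (-0.57 ± 0.23, adjusted p = 0.0467) joined the lower ones, which gave 25 and 3. Over all alternatives, CMPK2 passed in 8 and UBE2L6 in 5. Without DHX58 and OAS1, 23 of 37 genes were higher and 2 lower in treated degron cells. The highest of the 4 group means was that of treated degron cells in 33 of the 39 genes, treated parental cells in 5 and untreated degron cells in 1. This was not counted over all genes or without DHX58 and OAS1, so nothing is read from it about these genes.

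Genes that act upstream of these 49 were taken from 5 pathway lists. The 11 interferon ligand genes listed were all too low to test, and 8 of them, including IFNB1 and IFNG, had no count in any library, which allows up to 3 counts per library. IFNE had 64 counts, with means of 0.22 and 0.68 CPM in untreated and treated parental cells and 0.24 and 0.53 CPM in degron cells. It was between 0.0763 and 1.10 CPM in a library, and treated and untreated libraries overlapped in each line. IFNL1 had 3 counts and IFNL3 had 1. Of 9 interferon receptors and Janus kinases, all tested, 5 rose in parental (55.6%) and 6 in degron cells (66.7%), and the interaction passed in IFNGR1, a chain of the interferon gamma receptor (0.41 ± 0.13, adjusted p = 0.0391). Of 11 STAT and IRF genes outside the 49, 8 were tested and 6 rose in each line (75%). Of all genes tested, 15.9% rose in parental and 26.0% in degron cells. STAT3 had an interaction of 0.33 ± 0.09 (adjusted p = 0.0168).

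Of 19 genes of nucleic acid sensing, 14 were tested, with 3 higher and 2 lower in parental and 5 higher and 3 lower in degron cells. The shares that rose, 21.4% and 35.7% of 14 genes, are not far from the 15.9% and 26.0% of all genes, and nothing is read from them about the list. TMEM173, which encodes the DNA-sensing adaptor STING, was at 30.4, 30.6 and 31.6 CPM in untreated and 31.8, 26.5 and 38.4 CPM in treated parental cells. In degron cells it was at 21.3, 23.5 and 26.4 CPM without and 43.4, 49.8 and 45.6 CPM with Dox/IAA. Its interaction was 0.90 ± 0.16 (adjusted p = 0.000938). The ribonuclease H2 subunits RNASEH2A and RNASEH2C, which remove ribonucleotides from DNA, had interactions of -0.86 ± 0.11 (adjusted p = 6.2e-05) and -0.56 ± 0.15 (adjusted p = 0.0158). MB21D1, which encodes the DNA sensor cGAS, had 4 counts in all, and IFI16 had 1. Of 13 negative regulators, all tested, 2 rose and 3 fell in parental and 3 rose and 2 fell in degron cells. Their shares that rose, 15.4% and 23.1%, were close to those of all genes. The interaction passed in IRF2BP2 (0.75 ± 0.13, adjusted p = 0.00068).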

How the data were processed

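HCT116 cells were sequenced on an Illumina NextSeq 500 from stranded poly-A libraries with single reads. The deposited table holds unnormalized read counts per gene for 12 libraries, and a GC column that the authors gave as a percent. The submitters' processing notes name cutadapt 1.15, Bowtie2 2.3.3.1, STAR 2.5.2b, SAMtools 1.5, featureCounts 1.5.3 and the build GRCh38, with no role given for each. The strand setting and annotation release are not given in the sources used here. Groups came from the sample labels, and 0 count columns were left unmapped. No deposited library was identical to another.

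A filter on low counts (filterByExpr, minimum count 10, groups as given) kept 16657 of 58233 genes. The counts were scaled by TMM and fitted in edgeR 4.0.16 under R 4.3.3, using 1 mean per group and the quasi-likelihood F test. The comparisons were the Dox/IAA response in each line, their interaction, and the lines with and without Dox/IAA. All p-values were adjusted (Benjamini-Hochberg) over all tested genes, and SE and 95% confidence intervals come from this fit. The script was tested on simulated data with planted changes. CPM was computed from TMM-normalized library sizes, and RPKM is CPM divided by the deposited gene length in kilobases. The median SE of the 39 tested genes was 0.14 in each response and 0.20 in the interaction, which sets the precision at this depth. Counting intervals cover counting error only.

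The alternatives tried were DESeq2 1.42.0, the likelihood ratio test, library size only, RLE normalization, no filter, a filter of 1 CPM, fits with only the groups compared, a replicate block, a GC correction and each library left out. Deviations from group means of libraries with the same replicate number correlated at 0.124 to 0.246 between untreated and treated parental cells and at 0.101 to 0.138 between the treated lines, above 0.1 in all 3 pairs of each, so that the numbers were taken to pair the samples in these 2 comparisons. In the degron response, the untreated lines and the interaction not every pair was above 0.1, and the numbers were taken as names only. The main fit had no block in any comparison. Its SE and p-values for the parental response and the treated lines therefore ignore the pairing, and the block was an alternative only. The labels do not say what the numbers share. Genes given in full were the 12 with the smallest p among those whose interaction passed and the 12 with the largest log2 change above 1 in any comparison, and the others are examples by role, chosen by smallest p. Genes of pathway lists were named by smallest interaction p or where a result turned on them. The 49 genes and all lists were chosen with earlier results of these data known. Promoters come from RefSeq (GRCh38.p14).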

Additional observations from a re-analysis of the deposited data

Results flagged for a closer look

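In 15 genes the responses of the lines to Dox/IAA differed by the interaction test of edgeR (adjusted p under 0.05 over 16657 genes). The degron response exceeded the parental response by a log2 fold change of 2.97 in GBP2, 2.18 in BST2, 1.58 in IFITM1, 1.27 in IFIT2, 1.27 in IFI6, 0.79 in LGALS3BP, 0.70 in DDX60, 0.65 in DDX58, 0.65 in PARP9, 0.65 in ISG15, 0.56 in STAT2, 0.49 in HERC5, 0.48 in DTX3L and 0.46 in IFITM3. In OAS3 it was lower, at -0.79. In BST2, LGALS3BP, IFITM1, IFIT2, DDX60 and HERC5 the parental response did not itself pass the test, and OAS3 was the only member whose responses passed in opposite directions.

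In DDX60, DTX3L and GBP2 the untreated degron level was lower than the untreated parental level, and the treated lines did not differ by the test, so their larger response came with a lower starting level. ISG15 also started lower (-0.32 ± 0.09, adjusted p = 0.0144, edgeR) but was higher in treated degron cells (0.32 ± 0.09, adjusted p = 0.00505). Untreated degron libraries of BST2 and PARP9 lay below all untreated parental ones without passing (-0.82, adjusted p = 0.0855, and -0.22, adjusted p = 0.0634). In LGALS3BP, IFI6, DDX58 and STAT2 the untreated lines did not differ by the test and the treated lines did. The interactions of GBP2, HERC5, IFITM3 and STAT2 did not pass in some fits that left out 1 library, and the other 11 passed in every alternative run. Among genes whose interaction did not pass, IFIH1 passed in 9 alternatives, IFITM2 in 4 and IFIT3 in 2. IRF1, OAS1 and PARP14 passed in 1 alternative each.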

How the results depend on the processing

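The count of genes lower in treated degron than in treated parental cells was 2. It became 1 with library size only, RLE normalization, only the groups compared and DESeq2, and ranged from 1 to 3 when each library was left out. CMPK2 joined the lower genes with the likelihood ratio test, no filter, the filter of 1 CPM and the replicate block. It also joined them with the GC correction, with or without the block. The count of genes higher in untreated degron cells was 4 and ranged from 1 to 5 when each library was left out. The other counts over all 39 tested genes, by comparison and direction, stayed within 1.5 times under every alternative. Counts by role moved by up to 2 genes, as in the RNA sensors that rose in parental cells (1 to 3), and those of the pathway lists were not computed under the alternatives. When each library was left out, the genes that rose numbered 22 to 25 in parental and 34 to 37 in degron cells, and 11 to 15 passed the interaction in the higher direction. Some changes that did not pass the test changed sign in other fits. LGALS3BP in parental cells was at -0.0339 with the GC correction, -0.0359 with the GC correction and block, and from -0.0142 to 0.137 with 1 library left out, below 0 without untreated parental replicate 2 and, at -0.0034, without treated parental replicate 1. TRIM22 in parental cells was at -0.14 without untreated parental replicate 1 and -0.70 without treated parental replicate 3, in a range up to 0.83. DTX3L between treated lines was at -0.0055 without the filter, and from -0.0135 (without treated degron replicate 3) to 0.0382 with 1 library left out, also below 0 without treated parental replicate 2. OAS1 between untreated lines was at -0.14 and -0.06 without untreated parental replicates 1 and 2, in a range up to 1.06. DDX58 between untreated lines was at -0.0067 without the filter and from -0.0238 (without untreated degron replicate 2) to 0.0241 with 1 library left out, also below 0 without untreated parental replicate 2. Apart from fits with a library left out, calls were lost for DDX58 and IFIT3 in parental cells (only the groups compared), PARP14 between treated lines (no filter), IFI35 between treated lines (library size only, RLE, only the groups compared and DESeq2) and SP100 and IFIT5 between untreated lines (no filter). The cause was not tested. With a replicate block, 25 genes rose in parental and 36 in degron cells, and 16 passed the interaction in the higher direction, with IFIH1 (adjusted p = 0.0405) and IFITM2 (adjusted p = 0.0121) added. The block changed no call in the parental response. Over all 18 pairs of libraries with the same number, 7 correlations were above 0.1, and 11 of 12 libraries correlated best with one of their own number. Between untreated lines the block added TRIM22 and ISG20, for 5 higher and 8 lower genes. The filter on low counts, at about 0.79 CPM, limits what can be said of OAS2, MX2, GBP1, IFI44L, SAMD9L and XAF1.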
